A study of Mus musculus with 2 samples.

Results

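Interferon (IFN)-inducible GTPases were compared between LKS+ cells given CML EVs and LKS+ cells given control EVs. The members were fixed by name: 6 immunity-related GTPase (IRG) genes, Igtp, Iigp1, Irgm1, Irgm2, Tgtp1 and Ifi47, and 4 guanylate-binding protein (GBP) genes, Gbp2, Gbp3, Gbp4 and Gbp7. Matching RefSeq accessions on the array gave 11 probes for 9 of these 10 genes, out of 32989 probes with a gene symbol and 56604 probes in all. Tgtp1 had no probe under its own accession. LKS+ cells, the lineage-negative c-Kit+ Sca-1+ fraction of BM that contains hematopoietic stem and progenitor cells, came from WT mice and were propagated in medium with stem cell factor, IL-6 and IL-3. They were then co-cultured for 24 h with 150 μg/ml EVs from spleen (SP) of CML mice, or with the same amount of EVs from SP of control mice. CML was a model in which LKS+ cells carrying a BCR-ABL retrovirus were transplanted into irradiated recipients. The methods describe the CML donors of these EVs as irradiated once more after transplantation and describe no irradiation of the control donors, whereas the sample labels name only normal or CML mouse spleen, so that leukemia and irradiation of the EV donors cannot be told apart. WT animals of the study were male BALB/c or C57BL/6J mice, and which strain supplied these cultures is not given in the sources used here. There was 1 array per condition, so no difference below has a replicate check, and no p-value was computed. All ratios put CML EVs over control EVs and are taken on scaled intensity, each array being multiplied by 1 factor so that its spots without the upper and lower 2% averaged 2500.

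IFN-inducible GTPases defend cells against microbes that live in vacuoles or in the cytosol. IRG proteins fall into a regulatory class, Irgm1, Irgm2 and Igtp (also called Irgm3), which sits on the cell's own membranes and holds the other class in check, and an effector class, which includes Iigp1 (Irga6), Tgtp1 (Irgb6) and Ifi47 (Irgd) and loads onto vacuoles that hold pathogens. GBPs are larger GTPases that coat such vacuoles and bacteria and promote inflammasome activation by bacterial lipopolysaccharide. IFN-γ induces both families through gamma-activated sites (GAS) and through the transcription factor IRF1, and type I IFN acts through the IFN-stimulated response element (ISRE). In hematopoietic stem cells, Irgm1 is known to restrain proliferation driven by IFN.

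The promoter windows of most members carried the letters of these elements, which few promoters do. RefSeq windows (GRCm38.p6) from 250 bases before to 50 bases after the annotated gene start matched 8 member genes by symbol, Gbp4 and Iigp1 not being among them. The ISRE core, GAAA followed by any 2 bases and again by GAAA, on either strand, stood in the windows of 7 of the 8 genes. It stood in those of 3.99% of all 27025 genes with a window (3.44% of all 32851 windows). GAS letters, TTCNNNGAA, which read alike on both strands, stood in 4 of the 8 (Igtp, Irgm2, Tgtp1 and Gbp7), against 9.55% of all genes with a window. Both occurred together in these 4 genes and in 0.540% of all genes with a window. Sequences of the 110 bases before the gene start are given for 7 genes to show how the elements are arranged, 5′ to 3′ in the direction of the gene, with every ISRE core and GAS match in capitals.
Igtp, chr11:58199446-58199555, + strand: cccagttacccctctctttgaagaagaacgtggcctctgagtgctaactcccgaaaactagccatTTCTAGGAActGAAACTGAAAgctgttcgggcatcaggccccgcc
Irgm2, chr11:58214867-58214976, + strand: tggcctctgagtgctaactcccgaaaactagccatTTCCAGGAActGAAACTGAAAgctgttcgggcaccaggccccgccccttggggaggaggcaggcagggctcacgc
Tgtp1, chr11:48992247-48992356, - strand: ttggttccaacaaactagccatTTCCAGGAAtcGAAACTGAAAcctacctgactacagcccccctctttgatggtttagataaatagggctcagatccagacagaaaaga
Irgm1, chr11:48871421-48871530, - strand: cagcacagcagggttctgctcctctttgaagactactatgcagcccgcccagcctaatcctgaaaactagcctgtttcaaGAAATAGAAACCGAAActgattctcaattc
Gbp3, chr3:142559934-142560043, + strand: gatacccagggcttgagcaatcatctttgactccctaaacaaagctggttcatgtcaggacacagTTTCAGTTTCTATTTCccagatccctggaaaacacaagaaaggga
Gbp7, chr3:142530226-142530335, + strand: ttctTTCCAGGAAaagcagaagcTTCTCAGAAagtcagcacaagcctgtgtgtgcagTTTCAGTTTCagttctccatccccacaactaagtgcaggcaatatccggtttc
Ifi47, chr11:49076477-49076586, + strand: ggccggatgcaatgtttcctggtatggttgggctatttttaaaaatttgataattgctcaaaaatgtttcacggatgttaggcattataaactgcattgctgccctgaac
In Igtp, Irgm2 and Tgtp1 a GAS match was followed after 2 bases by an ISRE core. Only 5 of the 32851 windows held this arrangement in either orientation, and all were on chromosome 11: those of Igtp, Irgm2, Tgtp1, its near copy Tgtp2 and Gm12185. Igtp and its neighbor Irgm2 shared 58 of the 60 bases around the ISRE core, whereas Igtp and Tgtp1 shared 37 of 60. The capitals in Irgm1 and in Gbp3 are 2 overlapping ISRE cores each. A window at another annotated start of Gbp3 held no match. In Gbp7 both GAS matches lay upstream of its ISRE core, which began 53 bases before the gene start. Ifi47 had neither set of letters in its window, which says only that they are not in this stretch. A match is a stretch of letters and not a measured binding site.

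**Figure D1:**
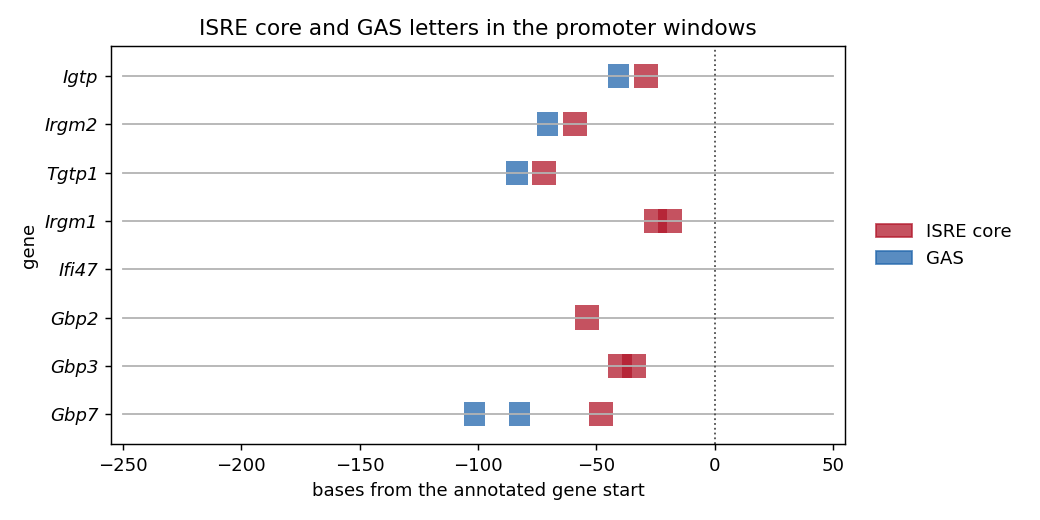
ISRE core (red) and GAS (blue) letters in the windows of the 8 member genes, by distance in bases from the annotated gene start (dotted line at 0); darker red marks overlapping ISRE matches. All matches lie between 106 bases before the start and the start itself, and Ifi47 has none.

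All 11 member probes had a higher signal in cells given CML EVs than in those given control EVs, and most of the steps were small. All 11 were well above background on both arrays. Their folds ran from 1.12 to 1.42 with a median log2 ratio of 0.21, which is 1.15-fold, whereas the median over 19616 named probes well above background on both arrays was 0.0041. Of these named probes 51.1% lay above 0. All 11 member probes and 17.8% of named probes were at least 10% higher. At least 25% higher were 1 member probe, that of Iigp1, and 5.09% of named probes. Dim probes scatter more widely, so the members were also set beside the 13851 named probes of the same range of signal, with a mean of both arrays of 72.8 to 6360 in scaled intensity. There 51.9% lay above 0, 15.9% were at least 10% higher and 3.16% at least 25% higher. Member by member, the size of the shifts against technical error depended on the measure of that error. For each spot the scanner software models an error of about 10.0% of the signal, which gives a log2 ratio an error of 0.20 to 0.22. By that measure 5 of the 11 ratios exceeded 1 modelled error and 1 exceeded 2. Between repeated spots of a probe the log2 ratio had a median SD of 0.09 and a highest SD of 0.17 over 11 probes of the same signal range that are placed 8 to 10 times on each array, and 10 of the 11 member ratios exceeded this highest SD. Neither error covers the spread between cultures or EV preparations.

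**Figure D2:**
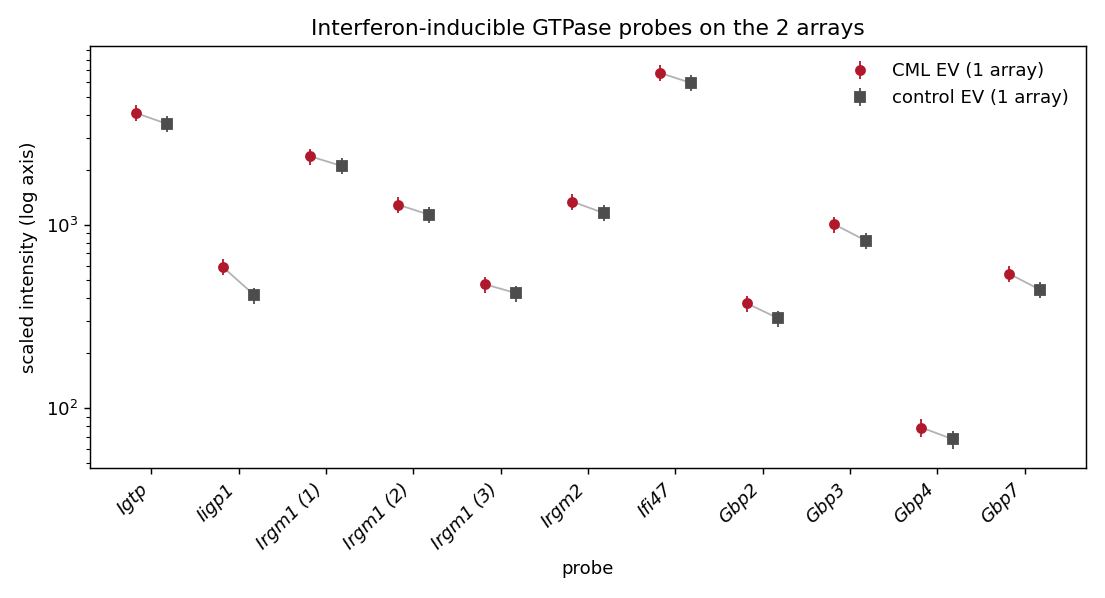
Scaled intensity (log axis) of each member probe with CML EVs (red circles, left) and with control EVs (grey squares, right), 1 array each; bars are the error modelled by the scanner software for the spot, and grey lines join the same probe. The red circle is higher for all 11 probes, and the widest step is that of Iigp1.

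Regulatory IRG genes were each slightly higher with CML EVs. Irgm1, which protects the cell's own membranes from the effector class, was measured by 3 probes with scaled intensities of 2373, 1293 and 475.0 with CML EVs, against 2100, 1139 and 424.1 with control EVs. The 3 probes gave nearly the same answer, log2 ratios of 0.18, 0.18 and 0.16 with a mean of 0.17 ± 0.01 (SD over 3 probes of 1 pair of arrays), or 1.13-fold, 1.14-fold and 1.12-fold. Probes of 1 gene share their RNA and are not replicates of the culture. Irgm2 had 1342 with CML EVs and 1163 with control EVs, or 1.15-fold. Igtp, found at the endoplasmic reticulum and on lipid droplets, had 4094 with CML EVs and 3566 with control EVs, also 1.15-fold. None of these 5 probes was more than 1.01 modelled errors above 0. The normexp setting, which includes quantile normalization, brought the log2 ratio of Igtp to 0.097, in place of 0.20, and left it above 0.

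Effector IRG genes held the largest shift of the members. Iigp1, the best studied effector, which disrupts the vacuole of Toxoplasma, had 589.8 with CML EVs and 414.1 with control EVs, 1.42-fold or a log2 ratio of 0.51. It was 2.50 modelled errors above 0 and lay above 99.0% of the named probes in the members' signal range. Normexp gave it a log2 ratio of 0.38. Its value rests on 1 spot of 1 probe on each array. The related gene Iigp1b had no probe, and whether the Iigp1 probe also captures its RNA cannot be told. Ifi47 had 6785 with CML EVs and 5962 with control EVs, 1.14-fold, which is 0.91 modelled errors and close to the regulatory class, although the ISRE and GAS letters of the sequences above were not in its window. For Tgtp1, whose promoter is printed above, no level can be given. The near copy Tgtp2, which has its own accession on the array, had 10366 with CML EVs and 9444 with control EVs, a log2 ratio of 0.13. The scanner files hold no probe sequences, so whether that probe also captures Tgtp1 RNA cannot be told.

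GBP members lay somewhat higher than the IRG members other than Iigp1. Gbp2, a lipid-anchored GBP that coats vacuoles and bacteria, had 373.2 with CML EVs and 309.5 with control EVs, 1.21-fold. Gbp3 had 1009 with CML EVs and 823.0 with control EVs, 1.23-fold. Gbp7, which is known to promote assembly of the phagocyte NADPH oxidase on vacuoles, had 543.1 with CML EVs and 442.3 with control EVs, likewise 1.23-fold. These 3 genes stand together on chromosome 3 and were 1.32 to 1.45 modelled errors above 0. Gbp4, on chromosome 5, was dim at 78.4 with CML EVs and 67.6 with control EVs, 1.16-fold. The median log2 ratio was 0.28 over the 4 GBP probes and 0.19 over the 7 IRG probes. This gap was not tested and is smaller than the modelled error of 1 ratio.

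**Figure D3:**
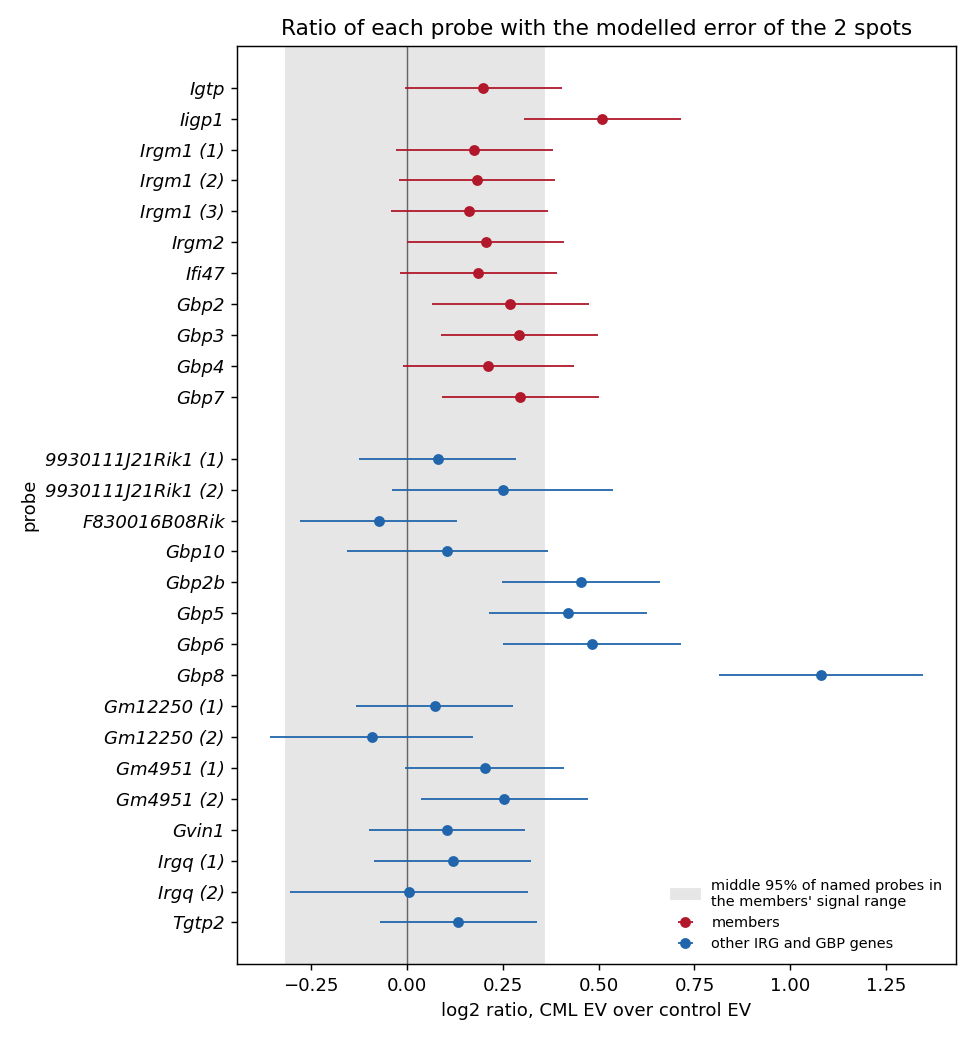
Log2 ratio, CML EVs over control EVs, of the 11 member probes (red) and of 16 probes of other IRG and GBP genes well above background on both arrays (blue); bars are 1 modelled error on either side, and the grey band is the middle 95% of 13851 named probes in the members' signal range, from -0.31 to 0.36. All red points lie above 0 and only Iigp1 lies beyond the band; the blue points beyond it are Gbp2b, Gbp5, Gbp6 and Gbp8.

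The remaining genes of both families pointed the same way, GBPs more than IRGs. Of 18 listed, 15 had a probe and 12 were well above background on both arrays; with 1 probe a gene, that brightest with CML EVs, 11 of these were higher and 1 was lower with CML EVs, with a median log2 ratio of 0.13. At least 25% higher were 4 of the 12, all GBPs, against 5.01% of 13417 named genes. Gbp2b (formerly Gbp1) had 229.8 with CML EVs and 167.7 with control EVs, 1.37-fold, and Gbp5, which promotes NLRP3 and AIM2 inflammasome responses, had 271.7 with CML EVs and 202.9 with control EVs, 1.34-fold. Gbp6 had 60.4 with CML EVs and 43.2 with control EVs, 1.40-fold, but its log2 ratio of 0.48 came to 0.28 with normexp, which is under 25%. Gbp8 had the highest ratio of either family, 2.11-fold, but at signals of only 57.0 with CML EVs and 27.0 with control EVs; its other probe was not well above background on either array, and normexp brought its log2 ratio to 0.52, in place of 1.08. Gbp9 was well above background with CML EVs alone, at 18.4 against 10.4. Set against 12.9, the lowest signal of a spot well above background with control EVs, 18.4 gave a lower bound of 1.42-fold. That bound leaves out the modelled errors, which were 19.6% with CML EVs and 30.6% with control EVs. Gbp10 was 1.08-fold higher at 40.6 with CML EVs and 37.7 with control EVs. With the members, all 9 GBP genes well above background on both arrays were higher, 4 of them by at least 25%, with a median of 1.23-fold. Of 11 such IRG genes 10 were higher, 1 of them (Iigp1) by at least 25%, with a median of 1.13-fold.

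Ratios also spread among neighbors in the genome, by amounts that were not tested. On chromosome 11 the 7 IRG genes with a level lay between 1.05-fold and 1.15-fold. Gm12250, which encodes the effector Irgb10 and lies beside Igtp and Irgm2, was at the low end, with a log2 ratio of 0.07 at 619.0 with CML EVs and 588.4 with control EVs and of -0.09 from a dimmer probe, so that the mean of its probes was -0.0090. On chromosome 18, Gm4951 was 1.15-fold higher and F830016B08Rik, another IRG gene of the same cluster as Iigp1, had a log2 ratio of -0.07, at 913.5 with CML EVs and 960.8 with control EVs. Irgq, an IRG relative, was 1.09-fold higher and the giant GTPase gene Gvin1 1.08-fold higher. Irgc1 and 9930111J21Rik2 were not well above background on either array.

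**Figure D4:**
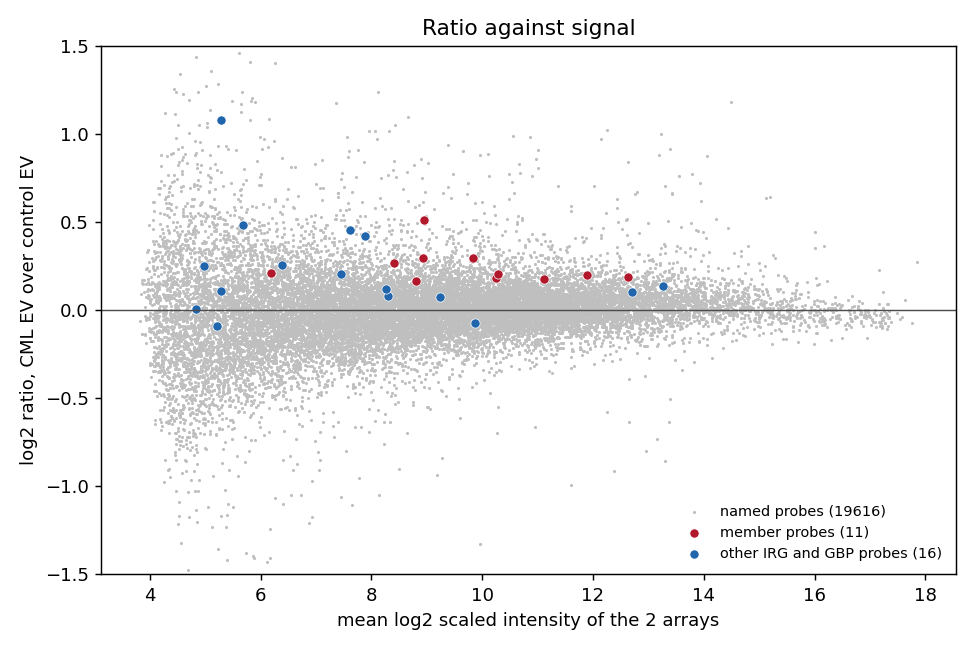
Each probe's log2 ratio (vertical axis, CML EVs over control EVs) by its log2 scaled intensity averaged over both arrays, for 19616 named probes (grey), the 11 member probes (red) and 16 probes of other IRG and GBP genes (blue); 31 grey points lie beyond the vertical axis. Grey points spread more widely at low signal, and the red points form a narrow band above 0 with Iigp1 above it.

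Genes upstream of the GTPases were shifted less. Of 13 listed receptors, kinases and transcription factors 10 were higher and 3 lower with CML EVs, with a median log2 ratio of 0.06, and 1 was at least 25% higher: Ifngr1, the ligand-binding chain of the IFN-γ receptor, at 3270 with CML EVs and 2580 with control EVs, 1.27-fold. It was under 25% higher with normexp, quantile normalization and loess, at log2 ratios of 0.29, 0.32 and 0.32 in place of 0.34. Its partner chain Ifngr2 had a log2 ratio of 0.06. Irf1, itself an early IFN-γ target and an activator of GBP genes, was close to equal, with 3317 with CML EVs and 3199 with control EVs, a log2 ratio of 0.05. Stat2 had a log2 ratio of 0.27 but -0.24 from a dim probe. The brighter Irf9 probe had 2789.9 with CML EVs and 2790.5 with control EVs, and the other gave 1.14-fold. Tyk2, a kinase of the type I IFN receptor, was 1.18-fold higher, while Jak2, a kinase of the IFN-γ receptor, had a log2 ratio of -0.17 from its bright probe and 0.45 from a probe at only 42.8 with CML EVs and 31.3 with control EVs. IFN-γ itself (Ifng) was not well above background on either array.

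Genes that work with the GTPases in vacuole and lipopolysaccharide defense were close to equal. Of 16 listed, 15 were well above background on both arrays; 10 were higher, 5 were lower and none was at least 25% higher or 20% lower, against 5.01% and 5.25% of named genes. Their median log2 ratio was 0.06. Atg12, of the conjugation machinery that places IRGs and GBPs on vacuoles, was highest at 1.15-fold. Atg5, Atg7 and Atg3 of the same machinery had log2 ratios of 0.04, 0.06 and 0.01, although another Atg7 probe gave 0.28. Casp4, the sensor of cytosolic lipopolysaccharide that GBPs help to activate, was 1.09-fold higher, and Gsdmd, the pore-forming protein it cleaves, had a log2 ratio of 0.08. Gabarapl1, an autophagosomal protein, had -0.14 from both of its probes. Of the other large IFN-induced GTPases, Mx1 and Mx2 had no probe under a RefSeq accession of the table.

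Across the array, genes with an ISRE core in their window had slightly higher ratios than all measured genes with a window. Whether these letters went with the ratio among the members was not tested. Of 417 measured genes with an ISRE core in their window 26.1% were at least 10% higher with CML EVs, and 25.1% of the 411 left without the members, against 17.4% of all 10734 measured genes with a window. Their medians were 0.03, 0.02 and 0.0089 on the log2 scale, in the same order. For 928 genes with GAS letters the share was 17.8%. These are descriptions across genes, which are not independent of each other.

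Cell markers moved in part with these results. LKS+ markers were all well above background on both arrays. Of these 9 genes 8 were lower with CML EVs, among them Kit at 1529 with CML EVs and 1646 with control EVs. Slamf1 was lowest of the list, with a log2 ratio of -0.37 at 221.4 with CML EVs and 286.1 with control EVs. Its dimmer probe gave -0.64, at 21.5 with CML EVs and 33.6 with control EVs. The 1 higher LKS+ marker was Ly6a, the gene of Sca-1 and itself induced by IFN, at 1.28-fold. Of 10 neutrophil genes listed, 9 had a probe and were measured; 7 were higher and 2 lower, with a median log2 ratio of 0.44, and their summed scaled intensity was 588404 with CML EVs and 458182 with control EVs. At least 25% higher were 5 of the 9: Elane, the neutrophil elastase gene, at 2.27-fold, the granule protein genes Ltf, Ngp and Camp at 1.88-fold, 1.84-fold and 1.84-fold, and S100a8 at 1.36-fold. Macrophage markers summed to 19675 with CML EVs and 18857 with control EVs over 8 measured genes, 6 higher and 2 lower. Among them Vcam1 was 2.25-fold higher and Mrc1 had a log2 ratio of -0.34. Mertk was 1.29-fold higher at only 21.7 with CML EVs and 16.9 with control EVs, which is 0.91 modelled errors. C1qa and Cd5l were not well above background on either array. Of the lineage genes of the sort gate, 3 of 6 were measured, 1 higher and 2 lower, with a median log2 ratio of -0.17. They were Ptprc at 0.03, Cd4 at -0.17, which is also on the T and NK cell list, and Itgam at -0.20. A dim Itgam probe gave 0.43. T and NK cell genes, with 3 of 8 measured, 1 higher and 2 lower, summed to 796.0 with CML EVs and 827.9 with control EVs. Most of this sum was Cd4, at 484.4 with CML EVs and 544.0 with control EVs. Cd3d had log2 ratios of 0.32 and 0.40 from its probes, whereas the brighter probes of Cd3e and Cd4 gave -0.07 and -0.17. Cd8a, Cd3g and Ncr1 were not well above background on either array. Of B cell genes Cd79b alone was measured, at 750.7 with CML EVs and 734.3 with control EVs, and Ms4a1 was not well above background. The part of these shifts in the ratios of the GTPases was not tested. In RNA from whole cultures, a change in the number of cells of a type and a change in RNA per cell cannot be told apart.

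**Figure D5:**
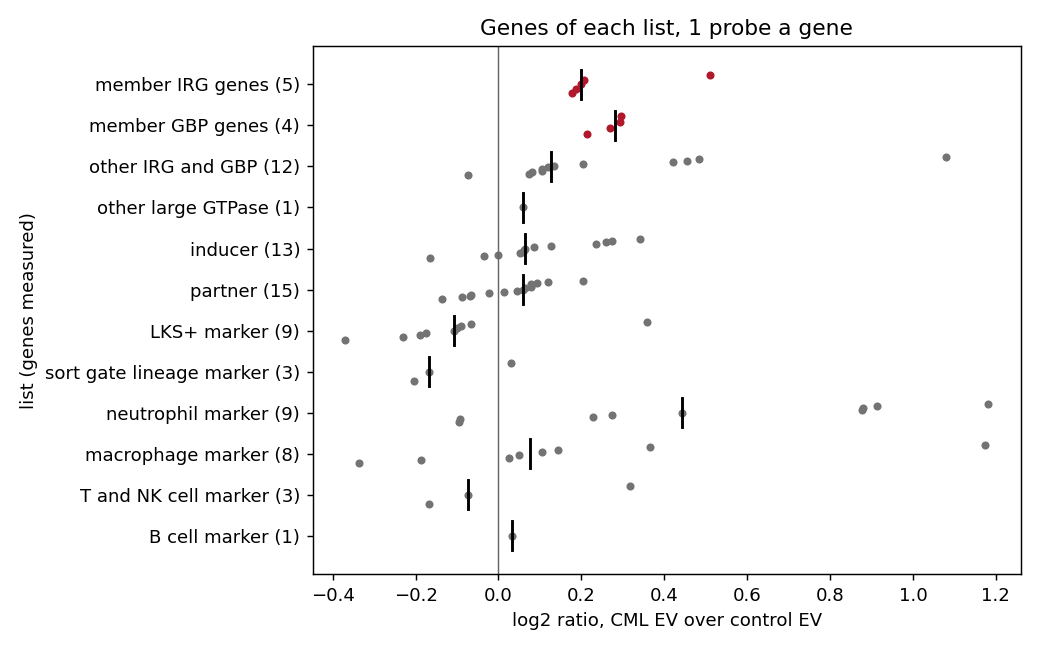
Log2 ratio, CML EVs over control EVs, of every measured gene of each list, 1 probe a gene (points; members in red), with the list's median (black bar) and the number of genes measured in parentheses. Member IRG and GBP genes lie above 0 without exception, upstream genes and partners lie around their medians of 0.06, and neutrophil markers have the highest median, 0.44.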

How the data were processed

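Cyanine 3-labeled RNA of the cultures was read on one-colour Agilent mouse expression arrays. The authors' deposited scanner files give the intensity of 59305 spots other than controls, from which Agilent Feature Extraction 12.0.3.1 (named in the submitters' processing notes) had subtracted background, and flags for spots well above background, outliers and saturation, of which there were 0. In the deposited series table this intensity is multiplied by 0.947 (CML EVs) or 0.942 (control EVs), without a log. Well above background were 53.3% of spots with CML EVs and 54.4% with control EVs. Outlier spots (88 with CML EVs and 95 with control EVs) were left out. Probes were named through RefSeq accessions without versions, with the RefSeq table of GRCm38.p6 (32989 of 56604 named); the array design refers to another build, so coordinates are given for RefSeq promoter windows alone and not for probes. Where 1 value per gene was needed, the probe brightest with CML EVs was taken, as in the study's methods. Members and lists were chosen with earlier results of these data known; every member is named, and from each list its genes at least 25% higher or 20% lower, those with the largest ratios and preset pathway genes, while others were added after their values were seen. The scaling step was checked on simulated arrays. Alternatives covered scaling (75th percentile, median, quantile), normexp with limma 3.58.1, the deposited table, outlier flags, dim probes, fold thresholds and probe choice. The normexp setting took median spot and background signals, added an offset of 50 and ended with quantile normalization. It thus differed from the main setting in more than background correction. A loess trend (span 0.3) was added after seeing the data. Motif letters were searched with Python 3.11.15. A planned search for motifs in the proteins was not run. Precision is limited by the number of arrays, 1 a condition.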

Additional observations from a re-analysis of the deposited data

How the results depend on the processing

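Under 7 alternatives none of the 77 recomputed log2 ratios of the 11 member probes fell below 0. They ran from 0.10 to 0.58, and 75 moved by less than the median SD of 0.09 between repeated spots. The exceptions were Igtp (0.097) and Iigp1 (0.38) with normexp. Only quantile normalization, normexp and loess could move member probes against each other. The deposited table holds the same scaled intensities, and ignoring outlier flags changed no member. Scaling to the 75th percentile or the median added the same amount to every probe, 0.0076 or 0.070. In these settings no member could move by more than that SD. The median log2 ratio of the member probes was 0.28 with median scaling, which raised the median of all named probes to 0.07, and 0.17 with normexp. The number of member probes at least 25% higher, 1, was 4 with median scaling (where 7.67% of named probes were), 0 at a threshold of 50% and 11 at one of 10%. For related genes, alternatives chosen after seeing the data changed the sign with the mean of all probes for Gm12250 (-0.0090), Jak2 (0.14) and Irf9 (0.094), with median scaling for Jak1 (0.034) and Irf9 (0.070), with the 75th percentile for Irf9 (0.0074) and with normexp for Jak1 (0.014) and Irf1 (-0.028). Normexp also took Gbp6 (0.28) and Ifngr1 (0.29) under 25% higher, and quantile normalization (0.32) and loess (0.32) took Ifngr1 there. Of the marker lists, the sort gate lineage list (0.065) and the T and NK cell list (0.072) changed sign when probes were averaged, and the B cell list (-0.055) with normexp. Apart from the thresholds, the cause was not tested. No paired analysis was possible because there was a single array for either kind of EVs, and no array could be left out for the same reason. Filters on dim probes could not alter a member, since all were bright enough to pass. Signal over background limits Gbp4, Gbp6, Gbp8, Gbp9 and Gbp10 most among the GTPases, and also Mertk among the markers.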
